A study of Mus musculus with 14 samples.

Results

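The bile acid transport and sensing genes described here were 10 genes picked by name, Slc10a2, Fabp6, Fgf15, Nr1h4, Nr0b2, Slc51a, Slc51b, Gpbar1, Abcc2 and Abcc3. All 10 were found among the 21898 genes of the deposited read count table, and 7 of them had enough reads for the test across genes. The table holds RNA-seq counts from colon tissue of mice given by gavage either PBS, a salt solution that serves as the control (7 libraries), or Bacteroides thetaiotaomicron, a common gut bacterium abbreviated B. theta (7 libraries). All animals were wild type, and the labels give one treatment term and one batch term that are the same for both groups. The sources used here do not give strain, age, sex, dose, time after gavage or whether each library came from 1 mouse, so p-values measure the spread between these libraries. Total counts ran from 13150140 to 16781708 per library.

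Bile acids are made in the liver from cholesterol, act as detergents in the gut, and are mostly taken back up in the terminal ileum. Uptake starts at the apical membrane with the sodium-coupled carrier encoded by Slc10a2. Fabp6 encodes a cytosolic binding protein that carries bile acids across the cell, and the proteins of Slc51a and Slc51b form together the exporter of the basolateral membrane. Abcc2 and Abcc3 encode ATP-driven exporters of conjugates, the first placed apically and the second basolaterally in polarised cells. Nr1h4 encodes FXR, the nuclear receptor that bile acids activate, and Nr0b2, Fgf15, Slc51a, Slc51b and Fabp6 are known FXR targets. Gpbar1 encodes TGR5, a membrane receptor for bile acids. The colon is exposed to the bile acids that escape the ileum and to those that bacteria have modified, and it expresses Slc51a, Slc51b, Nr1h4 and Abcc3.

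In these libraries the 10 genes split into those read at an even level throughout, those that a few libraries held at a high level, and those with almost no reads. Ranked by the median over 14 libraries of FPKM (reads scaled to gene length and to the library total, which allows genes to be set against each other), Abcc3 came first at 39.7 FPKM. Nr1h4 followed at 28.0 FPKM, Slc51b at 9.29 FPKM, Fabp6 at 3.75 FPKM and Slc10a2 at 1.99 FPKM. Abcc3 ran from 29.2 to 55.1 FPKM and Nr1h4 from 22.6 to 82.7 FPKM, so these ranges overlapped. All 14 libraries of Slc51b, at 6.83 to 12.1 FPKM, lay below every library of Nr1h4. Fabp6 at 1.41 to 13.6 FPKM and Slc10a2 at 0.768 to 69.4 FPKM overlapped with each other and with Slc51b. Slc51a had a median of 0.503 FPKM but a range from 0 to 62.1 FPKM. Gpbar1 had a median of 0.318 FPKM and Abcc2 one of 0.263 FPKM, with overlapping ranges, and the medians of Nr0b2 and Fgf15 were 0.

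A set of 3 libraries stood apart. PBS 4, PBS 7 and B. theta 2 (numbered as in the library names) held the 3 highest levels of Slc10a2, Slc51a, Nr1h4 and Fabp6. They also held the 3 highest levels of Hoxb6, a homeobox gene, of Car1, a colonic carbonic anhydrase, and of Sis, the brush-border sucrase-isomaltase. Levels here are CPM, counts scaled to a common library size. Hoxb6 stood at 63.9, 25.9 and 30.1 CPM in these libraries and at 1.05 to 9.57 CPM in the other 11. Hoxb13, a homeobox gene of the hind end of the gut, stood at 0.195 CPM in PBS 4 and 4.38 CPM in B. theta 2, the lowest of all, but at 124.8 CPM in PBS 7, within the 21.9 to 469.8 CPM of the other 11. The 3 highest libraries of Hoxb6, Car1 and Sis were thus those of 4 of the 10 members. Slc26a3, like Car1 a marker of mature colonocytes, went another way. It stood at 108.1 CPM in PBS 4, 1030.4 CPM in PBS 7 and 424.2 CPM in B. theta 2, where all libraries ran from 108.1 to 1784.8 CPM. Hoxb6 was also 1 of the 3 genes most like Slc51a in these data, so it is not an independent marker. The sources used here do not say where along the colon each piece was taken. Because 2 of the 3 libraries are PBS and 1 is B. theta, the fold changes of the 7 tested members are also given without them, and fits with Hoxb13 as a covariate are given further on.

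The tissue label was checked against marker genes. All 10 epithelial markers were detected, and Epcam, an adhesion protein of epithelia, ran from 1417.6 to 1931.8 CPM. Of 10 small intestine markers, the apolipoprotein gene Apoa4 and the Paneth cell defensin gene Defa24 had 0 reads in all 14 libraries. Apoa1, Apoa4, Apoc3, Lct and Defa24 summed to 0 to 0.841 CPM in PBS and 0.0628 to 0.472 CPM in B. theta libraries, and to 0.260, 0.353 and 0.0717 CPM in PBS 4, PBS 7 and B. theta 2. The sum of all 10 was 568.6 to 2133.5 CPM in PBS and 244.8 to 5569.9 CPM in B. theta libraries, with the highest value in B. theta 2. It was carried by Reg3b, an antimicrobial lectin that reached 5373.4 CPM, and by Mptx1, a pentraxin gene that reached 1872.7 CPM. Markers of other tissues overlapped between the groups: the 6 of liver summed to 11.9 to 65.3 CPM in PBS and 8.46 to 46.4 CPM in B. theta libraries, with Serpina1a and Fgb at 0 in all. The 6 of smooth muscle summed to 3564.6 to 6259.1 CPM and 2873.2 to 5653.1 CPM, the 4 of enteric neurons to 21.2 to 46.1 CPM and 24.4 to 34.6 CPM, and the 3 of fat to 15.9 to 75.5 CPM and 16.1 to 42.5 CPM.

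The promoter windows of 4 members are printed here because Slc10a2, Slc51a and Fabp6 were high in the same 3 libraries while Slc51b, the partner of Slc51a, was not. Each window runs from 250 bases before to 50 bases after the RefSeq start, on GRCm38.p6, all on the minus strand and written 5′ to 3′. It lies at chr8:5105238-5105537 for Slc10a2, chr16:32487830-32488129 for Slc51a, chr11:43601513-43601812 for Fabp6 and chr9:65422724-65423023 for Slc51b. Capitals mark matches, on either strand, to the 4 motifs listed after the sequences.
Slc10a2: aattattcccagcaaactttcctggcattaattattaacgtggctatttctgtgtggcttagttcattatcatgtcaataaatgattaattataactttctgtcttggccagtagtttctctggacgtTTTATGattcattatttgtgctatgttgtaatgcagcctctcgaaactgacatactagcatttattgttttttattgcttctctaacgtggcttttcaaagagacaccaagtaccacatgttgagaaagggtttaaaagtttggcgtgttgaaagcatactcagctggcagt
Slc51a: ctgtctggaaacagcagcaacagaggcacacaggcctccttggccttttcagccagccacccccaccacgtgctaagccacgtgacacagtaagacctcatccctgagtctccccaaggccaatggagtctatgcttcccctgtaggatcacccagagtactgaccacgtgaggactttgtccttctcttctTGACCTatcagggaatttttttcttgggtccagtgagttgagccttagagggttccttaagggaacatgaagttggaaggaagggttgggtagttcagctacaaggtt
Fabp6: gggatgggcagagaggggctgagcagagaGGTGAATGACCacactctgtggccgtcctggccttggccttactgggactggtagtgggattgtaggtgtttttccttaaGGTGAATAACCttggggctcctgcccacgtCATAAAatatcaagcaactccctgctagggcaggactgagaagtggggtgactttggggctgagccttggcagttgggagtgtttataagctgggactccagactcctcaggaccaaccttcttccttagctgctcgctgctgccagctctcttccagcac
Slc51b: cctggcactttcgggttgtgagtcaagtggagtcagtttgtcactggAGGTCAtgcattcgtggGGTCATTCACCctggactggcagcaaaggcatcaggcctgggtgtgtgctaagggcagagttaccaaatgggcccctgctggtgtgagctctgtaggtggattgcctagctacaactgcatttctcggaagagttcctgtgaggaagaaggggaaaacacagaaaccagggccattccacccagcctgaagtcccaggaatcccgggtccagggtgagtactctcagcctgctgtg

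The motifs searched were the full inverted repeat of the FXR element, AGGTCANTGACCT, a looser form of it, GGTNANTNACC, and its single arm, AGGTCA. To these was added TTTATG, a site of the intestinal CDX factors. The full repeat holds this arm at either end and overlaps the looser form. It matched none of the 8 members with a window (Fgf15 and Abcc3 were not in the table), against 0.00914% of 32817 promoters. The looser form matched Fabp6 at 2 places, GGTGAATGACC at bases -221 to -211 and GGTGAATAACC at -141 to -131 from the start, and Slc51b as GGTCATTCACC at -186 to -176. Of all promoters, 0.262% held it. The arm AGGTCA was in Slc51a, Slc51b, Nr1h4 and Abcc2, and in 16.3% of all promoters. TTTATG was in Slc10a2, Fabp6 and Nr1h4, and in 11.9% of all promoters. The Nr1h4 window, at chr10:89506609-89506908 on the minus strand, lies inside the annotated span of the gene, which runs to 89533585. A match describes these letters only.

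Slc10a2, on GRCm38 chromosome 8 from 5083219 to 5105351, encodes the apical carrier that takes bile acids up from the lumen. Its level ran from 3.52 to 281.6 CPM in PBS libraries, with a median of 11.6 CPM. In B. theta libraries it ran from 3.26 to 93.2 CPM, with a median of 4.75 CPM. PBS 4 at 281.6, PBS 7 at 98.7 and B. theta 2 at 93.2 CPM were high, the other 11 libraries lay between 3.26 and 16.1 CPM, and the groups overlapped. In reads this was 4336, 1678 and 1300 against 46 to 240 in the rest. The mean was 61.4 ± 103 CPM (SD, n = 7) in PBS and 17.9 ± 33.3 CPM (SD, n = 7) in B. theta libraries, and the log2 fold change of -1.79 ± 1.15 (SE) did not pass the test (edgeR adjusted p = 0.495). It was -0.48 without PBS 4, -3.53 without B. theta 2 and -0.89 ± 0.39 without all 3 (adjusted p = 0.347), so its size rested on these libraries.

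Fabp6, on chromosome 11 from 43596049 to 43601540, encodes the bile acid binding protein of ileal cytosol. It stood at 0.801 to 6.36 CPM in PBS libraries with a median of 2.73 CPM, and at 0.667 to 3.30 CPM in B. theta libraries with a median of 1.57 CPM. Each library held 9 to 98 reads, and the groups overlapped. PBS 4, PBS 7 and B. theta 2 were again the highest, at 6.36, 3.41 and 3.30 CPM, but here PBS 1 followed closely at 3.21 CPM. Its log2 fold change was -0.65 ± 0.46 (SE, edgeR adjusted p = 0.535). It was -0.27 without PBS 4 and -0.30 ± 0.42 without the 3 libraries.

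Slc51a, on chromosome 16 from 32474504 to 32487879, encodes the alpha subunit of the basolateral exporter and varied most. PBS libraries held 0 to 194.0 CPM with a median of 1.68 CPM, and B. theta libraries 0 to 57.7 CPM with a median of 1.54 CPM. PBS 4 had 2987 reads, PBS 7 had 935 and B. theta 2 had 805, whereas PBS 3 and B. theta 3 had 0 reads, which allows up to 3 counts in each. The other 11 libraries reached at most 6.0 CPM, and the groups overlapped. The mean was 36.2 ± 72.5 CPM (SD, n = 7) in PBS and 10.1 ± 21.1 CPM (SD, n = 7) in B. theta libraries. Its log2 fold change of -1.86 ± 1.54 (SE) did not pass the test (edgeR adjusted p = 0.608). Its sign turned, to 1.37 ± 0.96, without the 3 libraries. In the annotation 567 of the 3198 exon bases of Slc51a also belong to exons of Pcyt1a on the other strand, and the sources used here do not say whether counting used strand. Pcyt1a had 83.9 to 129.2 CPM in all libraries, including those with 0 reads of Slc51a.

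Slc51b, on chromosome 9 from 65412714 to 65422955, encodes the beta subunit, without which the alpha subunit does not reach the membrane. It was even, at 4.81 to 7.84 CPM in PBS libraries with a median of 6.06 CPM and at 5.63 to 8.71 CPM in B. theta libraries with a median of 6.74 CPM. PBS 4, PBS 7 and B. theta 2, at 6.36, 6.06 and 6.74 CPM, lay in the middle of this range. Of 7 B. theta libraries 6 were above the PBS median, and the groups overlapped. The log2 fold change was 0.21 ± 0.13 (SE, edgeR adjusted p = 0.445), and 0.23 ± 0.16 without the 3 libraries. In the annotation 91 of its 709 exon bases belong also to exons of Rasl12 on the other strand, which had 4.23 to 9.01 CPM.

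Per length, the subunits stood far apart in most libraries. The ratio of Slc51b to Slc51a was 0.148 in PBS 4, 0.497 in PBS 7 and 0.527 in B. theta 2, so the alpha subunit led there. In the other 9 libraries with reads of both it ran from 6.39 in B. theta 4 to 168.4 in PBS 5. The mean log2 ratio was 3.01 ± 4.11 (SD, n = 6) in PBS and 3.06 ± 2.07 (SD, n = 6) in B. theta libraries, a difference of 0.05 (two-sided exact permutation test, p = 0.972). The difference was -1.59 without the 3 libraries (exact permutation p = 0.183) and 2.10 without PBS 1, PBS 3, PBS 5 and B. theta 3 (exact permutation p = 0.257), so its sign depends on which libraries enter.

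**Figure D1:**
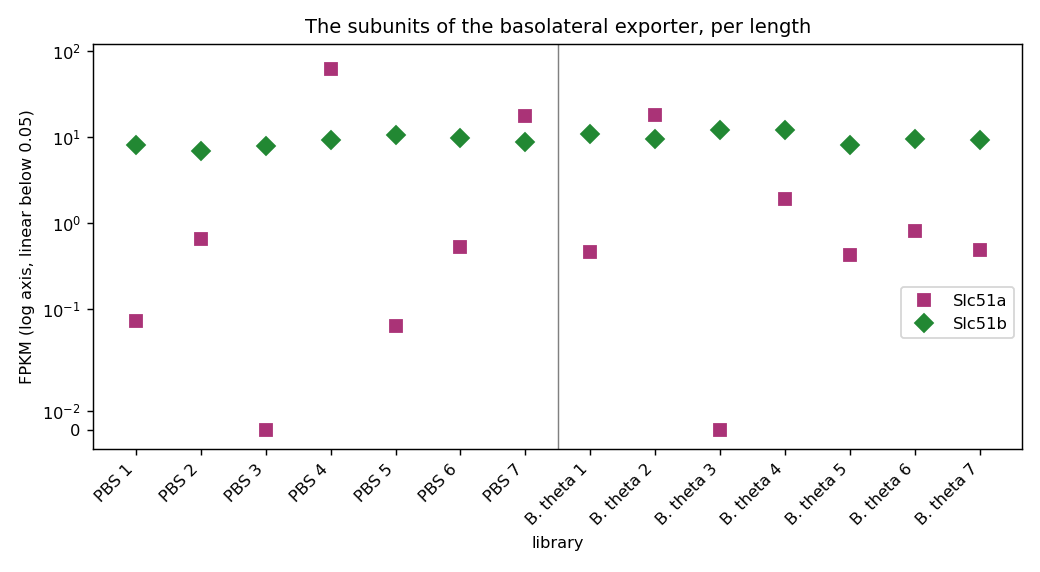
FPKM of Slc51a (squares) and Slc51b (diamonds) in each of 14 libraries, on an axis that is logarithmic above 0.05 FPKM and linear below. Slc51b stays within 6.83 to 12.1 FPKM, while Slc51a runs from 0 FPKM in PBS 3 and B. theta 3 to 62.1 FPKM in PBS 4 and exceeds Slc51b in PBS 4, PBS 7 and B. theta 2.

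Abcc3, on chromosome 11 from 94343295 to 94392997, encodes a basolateral exporter of conjugated bile acids and glucuronides, and was the member with the most reads. PBS libraries ran from 166.7 to 285.4 CPM with a median of 200.7 CPM, and B. theta libraries from 222.0 to 318.4 CPM with a median of 229.6 CPM. All 7 B. theta libraries were above the PBS median, but PBS 4 at 285.4 and PBS 7 at 234.7 CPM lay within the B. theta range. The mean was 208.0 ± 41.3 CPM (SD, n = 7) in PBS and 250.7 ± 35.5 CPM (SD, n = 7) in B. theta libraries. The log2 fold change of 0.27 ± 0.12 (SE) had an unadjusted p of 0.0370 and did not pass after adjustment (edgeR adjusted p = 0.291). An exact permutation test on log2 CPM gave p = 0.0495, and one on mean CPM gave p = 0.0641 (two-sided, unadjusted). Without the 3 libraries the log2 fold change was 0.35 ± 0.08 (edgeR adjusted p = 0.127). With the epithelial markers as a covariate it was 0.12 ± 0.12 (edgeR adjusted p = 0.762). The 10 epithelial markers summed to 12177 to 15004 CPM in PBS and 13923 to 15776 CPM in B. theta libraries (exact permutation p = 0.0367), and 8 of the 10 had a positive log2 fold change. The 8 mature colonocyte markers, all detected, summed to 4847.5 to 9423.0 CPM in PBS and 5067.1 to 7017.4 CPM in B. theta libraries (exact permutation p = 0.0472), and 6 of these 8 had a negative log2 fold change. The p-values of both sums are unadjusted. In bulk tissue, more cells of a type and more RNA per cell cannot be told apart.

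Abcc2, on chromosome 19 from 43782192 to 43840740, encodes the apical exporter of the same family and was near the bottom of the range per length. It stood at 1.75 to 3.94 CPM in PBS libraries with a median of 2.59 CPM, and at 1.48 to 4.60 CPM in B. theta libraries with a median of 2.15 CPM. B. theta 3 at 4.60, PBS 3 at 3.94 and B. theta 7 at 3.81 CPM were the highest, and the groups overlapped. The log2 fold change was -0.11 ± 0.27 (SE, edgeR adjusted p = 0.882), and 0.00 ± 0.33 without the 3 libraries. The ratio of Abcc3 to Abcc2 per length was 63.4 to 181.2 in PBS and 73.5 to 316.5 in B. theta libraries. Its mean log2 value was 6.87 ± 0.52 (SD, n = 7) against 7.34 ± 0.76 (SD, n = 7), a difference of 0.47 that did not pass the two-sided exact permutation test (p = 0.199) and was 0.31 without B. theta 2.

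Nr1h4, the FXR gene, lies on chromosome 10 from 89454234 to 89533585. PBS libraries ran from 51.5 to 186.1 CPM with a median of 68.6 CPM, and B. theta libraries from 55.9 to 113.6 CPM with a median of 60.9 CPM. PBS 4 at 186.1, B. theta 2 at 113.6 and PBS 7 at 102.1 CPM were the highest, the other 11 libraries lay at 51.5 to 89.5 CPM, and the groups overlapped. For the comparison of groups the log2 fold change was -0.34 ± 0.28 (SE, edgeR adjusted p = 0.599). It was -0.05 without PBS 4 and -0.08 ± 0.13 without the 3 libraries.

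Of the FXR targets among the members, Nr0b2 and Fgf15 were close to 0. Nr0b2, on chromosome 4 from 133553376 to 133556536, encodes SHP, a repressor that FXR induces. It had 1 read in PBS 2, 2 in PBS 7, 5 in B. theta 5 and 0 in the other 11 libraries. Fgf15, on chromosome 7 from 144896531 to 144900953, encodes the ileal hormone that tells the liver to make less bile acid, and had 1 read in PBS 5 and 0 in the rest. For the 7 B. theta libraries together, 0 reads of Fgf15 allow up to 3 counts, or 0.0291 CPM on unscaled totals, and this limit covers counting error only. No difference in either gene was detectable at this depth.

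Gpbar1, the TGR5 gene, on chromosome 1 from 74278550 to 74279624, was low but present in every library. PBS libraries held 4 to 13 reads, or 0.269 to 0.783 CPM with a median of 0.455 CPM. B. theta libraries held 1 to 6 reads, or 0.0674 to 0.401 CPM with a median of 0.296 CPM. All 7 B. theta libraries lay below the PBS median, although PBS 2 at 0.365 and PBS 6 at 0.269 CPM lay within the B. theta range. The mean was 0.513 ± 0.196 CPM (SD, n = 7) in PBS and 0.259 ± 0.106 CPM (SD, n = 7) in B. theta libraries, from 54 and 27 reads in all. A two-sided exact permutation test on log2 CPM gave p = 0.00758, unadjusted and with 10 members tested in this way. Gpbar1 was under the count filter, and in the fit without a filter its log2 fold change of -0.96 ± 0.37 (SE) did not pass (edgeR adjusted p = 0.281). TGR5 is known from macrophages and enteroendocrine cells. The 7 macrophage markers, all detected, summed to 408.4 to 565.4 CPM in PBS and 541.0 to 715.0 CPM in B. theta libraries (exact permutation p = 0.00175), which is the other direction. The 5 enteroendocrine markers, all detected, summed to 316.8 to 597.3 CPM in PBS and 287.1 to 370.8 CPM in B. theta libraries (exact permutation p = 0.00641). Both p-values of sums are unadjusted. Of the 7 macrophage markers, 7 had a positive log2 fold change, 3 had an unadjusted edgeR p under 0.05 and 0 were called. Lyz2 was the largest part of their sum, at a mean of 293.3 CPM in PBS and 368.7 CPM in B. theta libraries. Of the 5 enteroendocrine markers, 5 had a negative log2 fold change and 0 were called. Only Pyy had an unadjusted edgeR p under 0.05 (adjusted p = 0.289). The part of either cell type in the level of Gpbar1 was not tested.

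**Figure D2:**
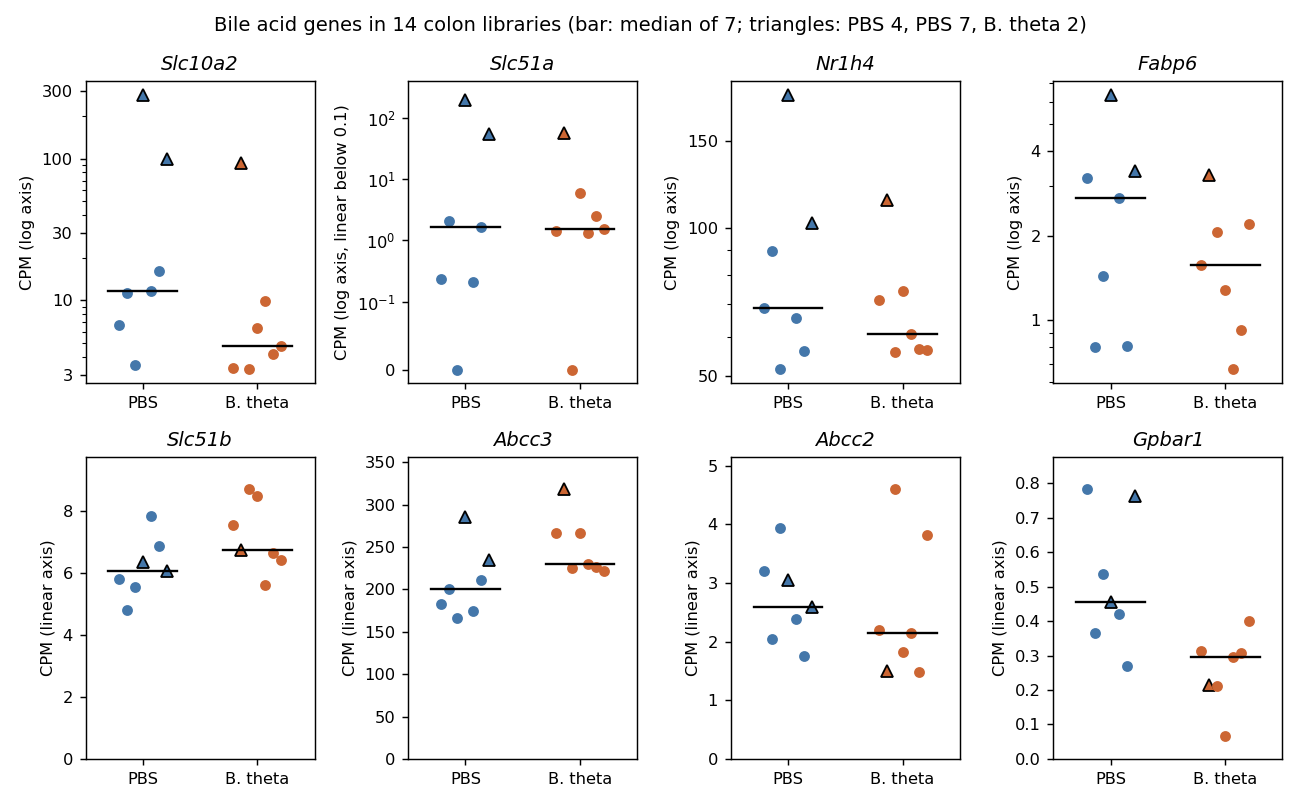
Level in CPM of 8 members in each of 7 PBS and 7 B. theta libraries, on a logarithmic axis for Slc10a2, Nr1h4, Fabp6 and, above 0.1 CPM, Slc51a, and on a linear axis for the rest. Bars are medians; triangles mark PBS 4, PBS 7 and B. theta 2, which are the highest for the 4 genes of the upper row and not for Slc51b, Abcc2 or Gpbar1.

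Across the members, 0 of the 7 tested passed the adjusted threshold of 0.05 in either direction, where 35 of 14070 genes did (0.249%). At an unadjusted p under 0.05 there was 1 member of 7, Abcc3, where 2145 of 14070 genes were found (15.2%), which is near the share of the members. DESeq2 and limma-voom also called 0 members, with 447 and 139 genes called in all. The median log2 fold change was -0.34 over the 7 members and -0.01 over all genes tested, and 5 of 7 members had a negative value. That median is the value of Nr1h4, one of the genes with their highest levels in PBS 4, PBS 7 and B. theta 2. With Hoxb13 as a covariate, a choice made after seeing the data, 96 genes and 0 members were called, and the smallest adjusted p among the members was that of Abcc3 (log2 fold change 0.27 ± 0.06, edgeR adjusted p = 0.0524). Slc10a2 was then at -1.86 ± 0.75, Slc51a at -1.99 ± 1.17 and Nr1h4 at -0.30 ± 0.11. With the epithelial markers as a covariate, log2 fold changes were -3.55 ± 1.34 for Slc10a2, -6.29 ± 2.34 for Slc51a and -0.65 ± 0.31 for Nr1h4, with edgeR adjusted p-values of 0.423, 0.422 and 0.505.

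**Figure D3:**
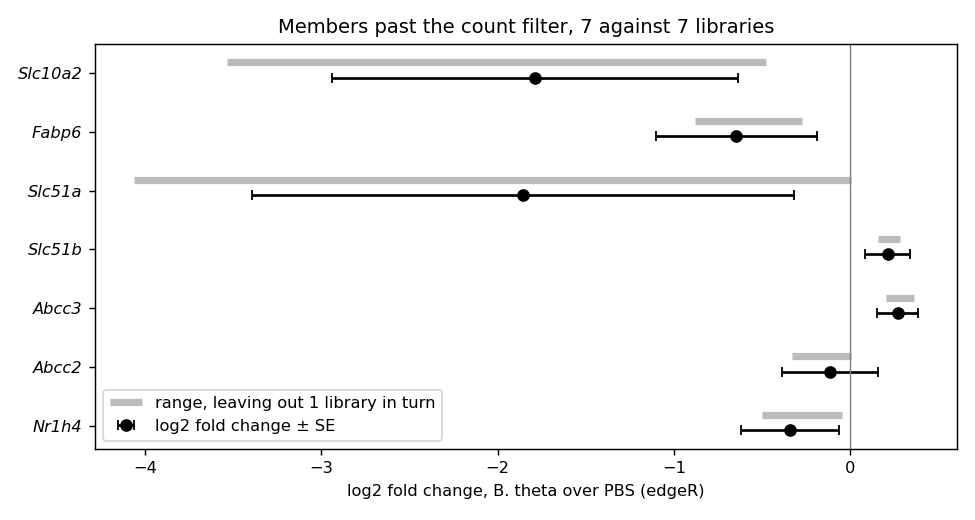
Log2 fold change of B. theta over PBS for the 7 tested members, with points and black bars for the value and its SE and grey bars for the range when each of 14 libraries is left out in turn. The grey bars of Slc10a2 and Slc51a are the widest, from -3.53 to -0.48 and from -4.06 to 0.00, while those of Slc51b and Abcc3 stay above 0.

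The genes around the members were counted in 5 further lists of the bile acid pathway, none of which held a gene past the adjusted threshold. Of 11 tested nuclear receptors and partners, among them the receptors of vitamin D (Vdr) and xenobiotics (Nr1i2), 0 were called and the median log2 fold change was -0.08. Of 8 tested synthesis genes 0 were called, with a median of -0.04. Cyp7a1, the rate-limiting enzyme of bile acid synthesis in the liver, had 0 reads in all libraries. Of 11 tested other transporters 0 were called, with a median of 0.01. Of 10 tested detoxification genes 0 were called, with a median of -0.22. Of 5 tested signal receivers 0 were called, with a median of -0.21, and this list holds Fgfr4 and Klb, the receptor and co-receptor of the Fgf15 hormone. At an unadjusted p under 0.05 these lists held, in the order above, 1 of 11, 1 of 8, 0 of 11, 2 of 10 and 1 of 5 tested genes. Over all genes tested the share was 15.2%. Among these list genes were Cyp27a1, Cyp3a13, Ephx1 and Pyy, named here after their values were seen. The smallest adjusted p among them was that of Cyp3a13, a cytochrome P450, at 227.3 ± 36.2 CPM in PBS and 163.8 ± 37.0 CPM in B. theta libraries (SD, n = 7 each), with a log2 fold change of -0.47 ± 0.14 (edgeR adjusted p = 0.133). DESeq2 called that gene, at an adjusted p of 0.0371, and no other gene of these lists.

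How the members varied together was described over the 11 libraries outside the 3, because Slc10a2 and Slc51a fall into 2 separate clusters of libraries. All 14 libraries had been planned, and the 11 were chosen after seeing the data. Of the 21 pairs of tested members, 5 passed the permutation test on Pearson's r over 14 libraries after adjustment over the 21, and 0 over the 11. Over the 14, Slc10a2 passed with Nr1h4 (r = 0.89) and with Slc51a (r = 0.86). Nr1h4 passed with Slc51a (r = 0.86) and with Fabp6 (r = 0.64). Slc51a also passed with Abcc3 (r = 0.76), a pair that had r = 0.67 in the 11 (permutation adjusted p = 0.275). The strongest in the 11 was Slc51a with Abcc2, with r = -0.78 (permutation adjusted p = 0.109) and Spearman's rho = -0.84 (permutation adjusted p = 0.0401). Its r fell to -0.53 without PBS 3 and B. theta 3, the libraries with 0 reads of Slc51a. Slc10a2, Slc51a, Nr1h4 and Fabp6 share their 3 highest libraries. In the other 11, r was 0.30 (Slc10a2 and Slc51a), 0.33 (Slc10a2 and Nr1h4) and 0.44 (Nr1h4 and Slc51a). Fabp6 had negative values there, with r = -0.33 (Slc10a2), -0.08 (Nr1h4) and -0.55 (Slc51a). Of all these, 0 passed.

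Set against Hoxb13 in the same 11 libraries, 3 of 7 members passed after adjustment over the 7. For Slc51a, r was -0.89 (permutation adjusted p = 0.00049) and rho -0.91 (permutation adjusted p = 0.00217), while over all 14 libraries r was -0.85 (permutation adjusted p = 0.00063). In the 11, r was -0.84 without the 2 libraries farthest from the median of Hoxb13, B. theta 4 and PBS 3. Within the groups its r was -0.94 over 5 PBS libraries and -0.83 over 6 B. theta libraries. For Abcc2, r was 0.76 (permutation adjusted p = 0.0254) and rho 0.77 (permutation adjusted p = 0.0250), and r was 0.75 without those 2 libraries. Over all 14 libraries the call was lost by r, at 0.34 (permutation adjusted p = 0.275), but not by rho, at 0.65 (permutation adjusted p = 0.0249). There r was 0.01 in the 7 PBS and 0.78 in the 7 B. theta libraries, and 0.76 without PBS 4 and B. theta 2. Within the groups of the 11 its r was 0.78 in PBS and 0.82 in B. theta libraries. For Abcc3, r was -0.71 (permutation adjusted p = 0.0374) and rho -0.71 (permutation adjusted p = 0.0424), and r was -0.49 without those 2 libraries, so it rests on them in part. Over all 14 libraries its r was -0.77 (permutation adjusted p = 0.00156). Within the groups its r was -0.87 in PBS and -0.75 in B. theta libraries. Over the planned 14 libraries 4 of 7 members passed by r, Slc51a, Abcc3, Nr1h4 and Slc10a2. For Nr1h4, r was -0.86 there (permutation adjusted p = 0.00156) and -0.55 in the 11 (permutation adjusted p = 0.113). For Slc10a2, r was -0.75 there (permutation adjusted p = 0.00878) and -0.21 in the 11 (permutation adjusted p = 0.628). Its rho over the 14 was -0.39 and did not pass (permutation adjusted p = 0.238). Fabp6 passed in neither set, with r = 0.65 in the 11 (permutation adjusted p = 0.0566) and -0.39 over the 14 (permutation adjusted p = 0.250). These relations were noticed in libraries whose levels were already known.

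**Figure D4:**
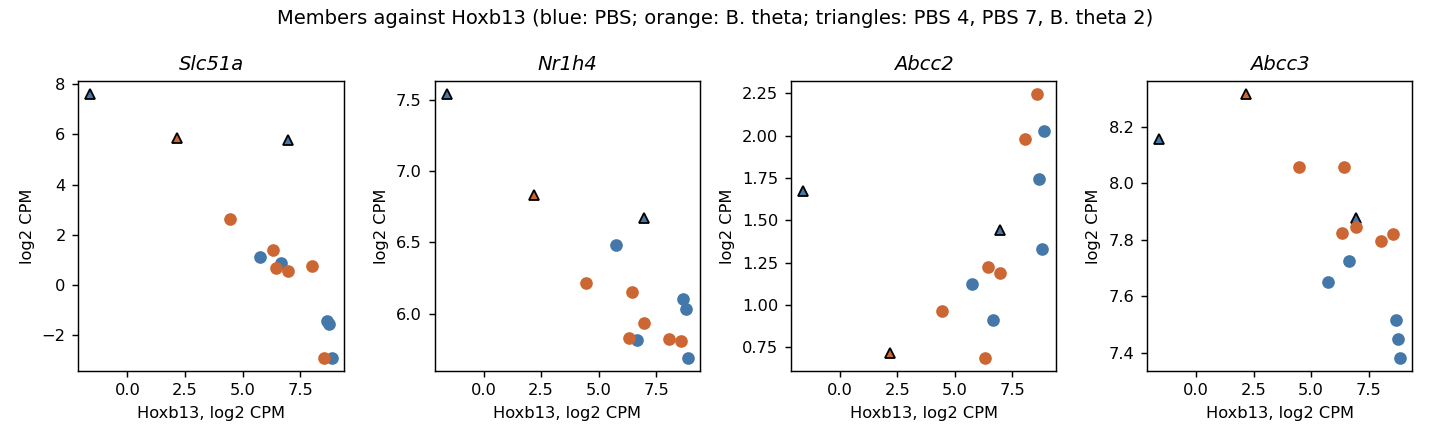
Log2 CPM of Slc51a, Nr1h4, Abcc2 and Abcc3 against log2 CPM of Hoxb13 in 14 libraries, with PBS in blue, B. theta in orange and triangles for PBS 4, PBS 7 and B. theta 2. Slc51a and Abcc3 fall and Abcc2 rises with Hoxb13 among the 11 round points, where r is -0.89, -0.71 and 0.76. For Nr1h4, r is -0.55 there and did not pass, and it is -0.86 over all 14.

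Of 35 relations with the mean log2 CPM of 5 marker lists over the same 11 libraries, 4 passed after adjustment over the 35. Slc51a had r = -0.90 with the distal hindgut list, which holds Hoxb13 and other posterior homeobox genes (permutation adjusted p = 0.0035), and rho = -0.91 (permutation adjusted p = 0.0040). It had r = 0.86 with the epithelium list (permutation adjusted p = 0.0035) and rho = 0.93 (permutation adjusted p = 0.00245). Abcc2 had r = 0.83 with the distal hindgut list (permutation adjusted p = 0.0177) and rho = 0.85 (permutation adjusted p = 0.0180). Abcc3 had r = 0.78 with the epithelium list (permutation adjusted p = 0.0121) and rho = 0.70 (permutation adjusted p = 0.114). Without the 2 libraries farthest on the x axis, the 4 values of r were -0.87, 0.93, 0.83 and 0.60. Over all 14 libraries both calls of Slc51a were lost by r. For the distal hindgut list r was -0.67 (permutation adjusted p = 0.0635), while rho was -0.82 and still passed (permutation adjusted p = 0.0121). For the epithelium list r was 0.51 (permutation adjusted p = 0.187) and rho 0.65 (permutation adjusted p = 0.0829). Over the 14, 4 relations passed by r, with a permutation adjusted p of 0.0327 each. Abcc2 had r = 0.74 with the distal hindgut list and -0.67 with the epithelium list. Abcc3 had r = -0.72 with the distal hindgut list and 0.69 with the epithelium list. In the 11, Abcc2 and the epithelium list had r = -0.65 (permutation adjusted p = 0.0941) and rho = -0.84 (permutation adjusted p = 0.0180). Abcc3 and the distal hindgut list had r = -0.71 in the 11 (permutation adjusted p = 0.0941). The small intestine list passed with none of the members.

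The genes most like each member were sought by Pearson's r of log2 CPM over 14 libraries among 13380 genes, as a description. Slc51a was closest to the homeobox genes Hoxb7 (r = 0.98) and Hoxb6 (r = 0.98) and to Amn (r = 0.96), a partner of the vitamin B12 receptor, and in the 11 libraries these r were 0.91, 0.90 and 0.88. Slc10a2 was closest to Cyp4b1 (r = 0.92), Hoxb9 (r = 0.91) and Amn (r = 0.91), but in the 11 libraries these were 0.36, 0.67 and 0.50, so these values rested on the 3 high libraries. Nr1h4 was closest to Flrt3 (r = 0.94), Frk (r = 0.92) and Col6a4 (r = 0.92), at 0.56, 0.63 and 0.70 in the 11. Fabp6 was closest to Ggnbp2 (r = 0.91), Syt2 (r = 0.86) and Xpnpep2 (r = 0.84), at 0.80, 0.68 and 0.67 in the 11.

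Abcc3 was closest to Etfa (r = 0.96), a mitochondrial electron carrier, Mvp (r = 0.94), the major vault protein, and Pmm2 (r = 0.94), and these stayed at 0.93, 0.91 and 0.91 in the 11 libraries. Abcc2 was closest to Osr1 (r = 0.91), Ngef (r = 0.89) and Enpp2 (r = 0.88), at 0.94, 0.87 and 0.86 in the 11. Slc51b was closest to Lrwd1 (r = 0.82), Sash3 (r = 0.80) and Trim5 (r = 0.79), at 0.83, 0.80 and 0.79 in the 11. The lists of Slc51a and Slc51b, the subunits of one exporter, shared 0 genes, and those of Slc51a and Slc10a2 shared Amn.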

How the data were processed

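RNA-seq libraries of mouse colon (7 PBS, 7 B. theta) were analysed from 1 table. The authors deposited raw read counts per gene and, per the file headers, FPKM values per gene, which were used only to set levels of genes side by side. Per the labels' protocols, total RNA was purified on columns before mRNA libraries were built. The submitters' processing notes name GRCm38 and mm10 as builds. The sources used here do not give the aligner, the counter or its use of strand. Gene positions and exon overlaps came from GENCODE M21 on GRCm38, matched by identifier, and promoters from RefSeq on GRCm38.p6, matched by symbol for 8 of 10 members.

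Groups came from the titles and replicate numbers from the library names. Counts were filtered with filterByExpr (minimum count 10, minimum total 15, leaving 14070 genes), scaled by TMM and fitted with a robust quasi-likelihood model on group alone (edgeR 4.0.16, R 4.3.3). The p-values were adjusted over every tested gene by the Benjamini-Hochberg method, and the threshold was 0.05. The SE is the fold change over the square root of F. Steps that test many genes were checked on simulated data. CPM used TMM-scaled library sizes and log2 CPM a prior count of 2. For single values the test was an exact permutation, two-sided, of all 3432 arrangements. Relations used 100000 permutations and were planned over 14 libraries, but are given over 11. Values over 14 are added for pairs of members that passed there by r. They are also added for relations with Hoxb13 and the marker lists that passed in either set. The ratio of Slc51b to Slc51a was planned for all libraries, but 2 had 0 reads of Slc51a, so 12 libraries and 924 arrangements were used. Alternatives were DESeq2 1.42.0, limma-voom (limma 3.58.1), other scalings and filters, covariates, a replicate block and libraries left out. The Hoxb13 covariate and the fits without PBS 4, PBS 7 and B. theta 2 were chosen after seeing the data.

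The members and all gene lists were chosen with earlier results of these data known. Named genes were all 10 members, any gene of the wider lists past the threshold, the 3 genes most like each tested member with at least 1 CPM on average, and defining markers. 1 gene of the wider lists is not reported here by name.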

Additional observations from a re-analysis of the deposited data

Results flagged for a closer look

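In a group of 7 libraries, a member was picked out by the gap between its highest or lowest library and the next. The gap, as a share of the group's range, had to exceed Dixon's 95% critical value. Chance gives this in about 1 group in 20 only for normally distributed values. CPM was used here without a logarithm and was skewed, so that rate does not apply. Where only 1 library of a group had reads, the rule was met by construction. Slc10a2 was so in PBS 4 at 281.6 CPM (next 98.7 CPM) and in B. theta 2 at 93.2 CPM (next 9.92 CPM). Slc51a was so in PBS 4 at 194.0 CPM (next 55.0 CPM) and in B. theta 2 at 57.7 CPM (next 6.0 CPM). Nr1h4 was so in PBS 4 at 186.1 CPM (next 102.1 CPM) and in B. theta 2 at 113.6 CPM (next 74.3 CPM). These 6 values came from the same 2 libraries, so they are not 6 separate events. Nr0b2 in B. theta 5 at 0.370 CPM (5 reads) and Fgf15 in PBS 5 at 0.0700 CPM (1 read) stood apart from groups otherwise at or near 0.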

How the results depend on the processing

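No member passed the adjusted threshold under any of the alternatives run, while the number of all genes called moved from 35 to 447 with DESeq2, 139 with limma-voom, 96 with Hoxb13 as a covariate, 198 at an adjusted p of 0.1, 15 with the replicate block, and 0 with the epithelium covariate, without PBS 1, 3, 5 and B. theta 3, or without PBS 4, PBS 7 and B. theta 2. Leaving out 1 library at a time gave 0 to 121 genes, and 0 members each time. Same-numbered libraries deviated together in 4 of 7 pairs and not in the other 3 (correlations from -0.26 to 0.60), which falls short of the rule that all pairs must. Of 14 libraries, 3 correlated best with their own number in the other group. The numbers were therefore not treated as pairs, and with the replicate block 0 members were called. Signs turned as follows. The log2 fold change of Slc51a became 1.37 without the 3 libraries and ran from -4.06 to 0.00275 with 1 library left out. That of Abcc2 became 0.0542 with the distal hindgut covariate, 0.282 with the epithelium covariate and 0.000659 without the 3 libraries, and ran from -0.327 to 0.00337 with 1 left out. With a prior count of 0.5 the difference in mean log2 CPM was 0.0267 for Slc51a and -0.0352 for Nr0b2. The difference in the log2 ratio of Slc51b to Slc51a was -1.59 without the 3 libraries, 2.10 without PBS 1, 3, 5 and B. theta 3, and ran from -1.10 to 0.93 with 1 left out. That of Abcc3 to Abcc2 ran from 0.311 (without B. theta 2) to 0.662. The replicate block leaves both differences as they are and gave exact sign-flip p = 0.969 and 0.0938. The cause was not tested in these cases. Depth limits Gpbar1, Nr0b2 and Fgf15, at 0 to 13 reads per library.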
